A study of Rattus norvegicus with 10 samples.

Results

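*G0s2*, *Retn*, which encodes resistin, and 8 further genes of fat storage, lipolysis and adipokine secretion were followed in the trigeminal ganglion (TG) of rats with oral ulcerative mucositis (OUM). The set holds 10 genes, 9 of them among the 15507 genes with a symbol on the array: *G0s2*, *Retn*, *Adipoq*, *Plin1*, *Lep*, *Fabp4*, *Cidec*, *Pnpla2*, *Lipe* and *Cfd*. They were chosen by function, with results of the OUM against naive comparison already known, and *G0s2* and *Retn* head the set. Their OUM minus naive differences are therefore given as descriptions without a p-value, and nothing is supported with them. Counts of member probes past a test threshold are given below, and nothing is read from those counts. A probe belonged to a gene when its accession mapped to that gene in RefSeq. This gave 10 probes for 9 genes, with *Lipe* measured by 2 probes. No probe was matched to *Plin1*, which was not analysed here.

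The arrays held TG RNA of 5 OUM and 5 naive male Wistar rats, with 1 array per rat. The OUM rats had filter paper with 50% acetic acid laid on the lower labial fornix for 30 s under anesthesia at 8 weeks of age, and their TGs were taken on day 2. The naive rats were age-matched, received the anesthesia alone, and carry the same day in the labels. Whole TGs of both sides were used after saline perfusion, so any change limited to the branch that serves the ulcer is diluted, and in such bulk tissue fewer cells of a type cannot be told apart from less RNA per cell. Each value is the log2 signal minus that of the array's 75th percentile over probes, so 0 is that percentile and a difference of 1 is a doubling. The arrays lay on slide 1 (3 OUM and 4 naive) and slide 2 (2 OUM and 1 naive). Between 69.0% and 75.6% of the probes of an array were well above background, the scanner software's mark for a measured spot, and no member probe was saturated. The number of arrays limits the precision.

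White adipocytes store fatty acids as triglyceride in a lipid droplet coated by perilipin (*Plin1*) and enlarged by CIDEC. On demand, adipose triglyceride lipase (ATGL, from *Pnpla2*) removes the first fatty acid, hormone-sensitive lipase (*Lipe*) the next, and the protein from *G0s2* binds ATGL and holds it back. Adipocytes also secrete adiponectin (*Adipoq*), leptin (*Lep*), adipsin or complement factor D (*Cfd*) and, in rodents, resistin (*Retn*), while *Fabp4* encodes a carrier of fatty acids. Several of these genes are used outside fat: ATGL and its inhibitor act in many tissues, *Fabp4* is also made by endothelial cells and macrophages, and *Cfd* by myeloid cells.

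Several adipocyte genes of the set were not measurable in these ganglia. *Adipoq*, *Lep* and *Cidec* were well above background on 0 of the 10 arrays. The *Adipoq* signal was -8.86, -8.70, -8.24, -8.55 and -8.89 on the OUM arrays, against -8.83, -8.34, -9.05, -7.59 and -8.48 on the naive arrays. The lowest signal of any probe well above background was -6.84 to -5.89 over the arrays, and all 10 *Adipoq* values were below that range. *Lep* lay between -8.44 and -7.24 in the OUM model and between -8.39 and -7.43 in naive rats, and *Cidec* between -8.24 and -6.48 in the OUM model and between -7.47 and -6.79 in naive rats. No fold is given for these genes, since neither group was measured above background. Of 13 further adipocyte markers with a probe, some of them also in the pathway lists below, 8 were well above background on all arrays. These were *Acvr1c*, *Cd36*, *Gpd1*, *Lpl*, *Mrap*, *Slc2a4*, *Slc36a2* and *Trarg1*, with mean OUM signals of 3.08 for *Mrap*, 1.55 for *Gpd1* and 1.53 for *Slc36a2*. *Adrb3*, *Car3*, *Lgals12* and *Pck1* were above background on no array. The summed signal of that marker list was 13.5 to 16.4 times the 75th percentile in the OUM model and 13.5 to 16.2 in naive rats, and the groups overlapped. Signals were summed on the linear scale, so this sum rests mostly on *Mrap*, *Gpd1* and *Slc36a2* and says little of the dimmer markers. The tissue itself carried its own markers, with 7 of 7 neuronal and 5 of 5 Schwann cell genes measured on every array. Since *Adipoq*, *Lep* and *Cidec* were not measured, the set is described below as lipolysis, resistin and carrier genes of the ganglion, without the label of adipocytes. Whether the ganglia held adipocytes was not tested.

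**Figure D1:**
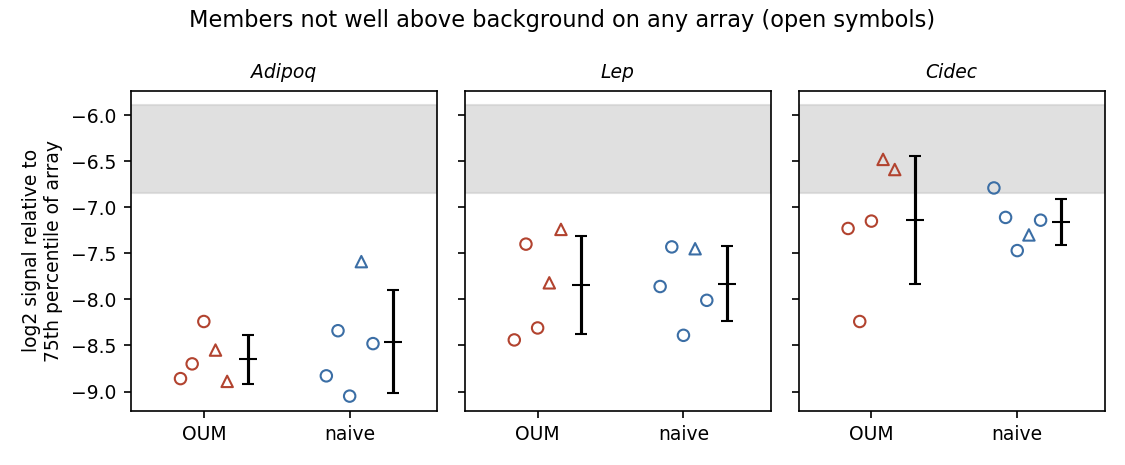
Log2 signal relative to the 75th percentile of the array for *Adipoq*, *Lep* and *Cidec* on OUM and naive arrays, with 1 open symbol per rat (circle, slide 1; triangle, slide 2) and the mean and SD (n = 5 each) beside them. The grey band is the range over arrays of the lowest signal among probes well above background, -6.84 to -5.89, and no point was marked as above background.

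*G0s2* was the member whose groups stood apart. Its log2 signal was 2.12, 2.15, 2.25, 2.20 and 2.17 on OUM arrays 1 to 5, and 1.62, 1.65, 1.61, 1.69 and 1.97 on naive arrays 1 to 5. All 5 OUM arrays thus lay above all 5 naive arrays, with a gap of 0.15 between the lowest OUM and the highest naive value. The OUM mean was 2.18 ± 0.05 (SD, n = 5) and the naive mean 1.71 ± 0.15 (SD, n = 5), a log2 difference of 0.47 (SE 0.07), or 1.38-fold. The OUM arrays spanned 0.12 and the naive arrays 0.36. The wider naive range came mostly from naive array 5, with 1.97 against 1.69 or less on the other naive arrays. Within slide 1 the difference was 0.46 and within slide 2 it was 0.49, so the slides gave nearly the same value. Over all tested probes, the 10th to 90th percentile of the difference was -0.12 to 0.16.

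Of the 7 tested member probes, *G0s2* was the only one whose groups did not overlap (1 higher, 0 lower). Over all 21521 tested probes, 0.929% had every OUM array above every naive array and 0.711% had every OUM array below. With limma, 0 member probes passed an adjusted p of 0.05 over all probes, where 0% of all probes passed. At an unadjusted p under 0.05, 2 member probes were higher (*G0s2* and *Pnpla2*) and 0 were lower, against 4.65% of all probes higher and 3.72% lower. Since the members were chosen with this comparison known, nothing is read from these counts. The methods' t-test also passed 0 member probes after adjustment.

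The bases before the RefSeq start of *G0s2* are shown because its probe separated the groups, with those of *Pnpla2*, whose enzyme it inhibits, and of *Retn*. Each run is the 250 bases before the start, read 5′ to 3′ on the gene's own strand, from RefSeq on build GRCr8, which is not the build of the array annotation. They lie at chr13:107335949-107336198 (minus strand) for *G0s2*, chr1:205982029-205982278 (plus strand) for *Pnpla2* and chr12:6508524-6508773 (plus strand) for *Retn*. Capitals mark the motif matches named after the sequences.
G0s2: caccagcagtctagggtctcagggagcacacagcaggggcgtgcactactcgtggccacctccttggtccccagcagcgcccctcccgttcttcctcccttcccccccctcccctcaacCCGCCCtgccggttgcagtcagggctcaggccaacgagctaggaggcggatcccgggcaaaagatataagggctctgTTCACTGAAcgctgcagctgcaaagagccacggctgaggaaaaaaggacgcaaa
Pnpla2: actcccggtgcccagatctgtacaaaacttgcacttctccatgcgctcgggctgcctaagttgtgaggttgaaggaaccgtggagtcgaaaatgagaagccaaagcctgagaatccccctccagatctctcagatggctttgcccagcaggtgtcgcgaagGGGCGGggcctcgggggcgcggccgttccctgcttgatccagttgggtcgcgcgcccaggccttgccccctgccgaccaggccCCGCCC
Retn: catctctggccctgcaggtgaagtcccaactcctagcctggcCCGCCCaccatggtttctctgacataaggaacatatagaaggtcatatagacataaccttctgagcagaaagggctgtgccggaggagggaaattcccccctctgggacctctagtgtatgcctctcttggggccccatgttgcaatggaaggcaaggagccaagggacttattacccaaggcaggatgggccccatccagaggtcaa
The *G0s2* window held the letters of a STAT element (TTCNNNGAA, matched as TTCACTGAA, 54 bases before the start) and of a GC box (GGGCGG or its complement). The *Pnpla2* window held 2 GC boxes and the *Retn* window 1. Among 33469 windows of this length, 7.67% held the STAT element and 30.5% the GC box, on either strand. The letters of a PPAR-RXR direct repeat (AGGTCA, any 1 base, AGGTCA, in 0.0508% of windows), a glucocorticoid receptor element (AGAACA, any 3 bases, TGTTCT, 0.012%), an E-box (CACGTG, 5.59%), a D-box (TTATGTAA, 0.828%), a C/EBP element (TTGCNNAA, 9.22%), a CCAAT box (CCAAT, 34.0%) and a TATA box (TATAAA, 12.9%) were in none of these 3 windows. The matches did not overlap each other. They are letters in a window and say nothing of a factor's binding.

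*Pnpla2*, the lipase that the *G0s2* product inhibits, was measured on every array and differed less. Its log2 signal was -0.67, -0.61, -0.61, -0.48 and -0.72 on the OUM arrays, against -0.82, -0.84, -0.75, -0.62 and -0.78 on the naive arrays. On 3 of 5 OUM arrays the signal was above all naive arrays, and naive array 4 lay among the OUM values. The means were -0.62 ± 0.09 in the OUM model and -0.76 ± 0.08 in naive rats (SD, n = 5 each), a log2 difference of 0.14 (SE 0.06). This difference was 0.16 within slide 1 and 0.02 within slide 2.

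Hormone-sensitive lipase, from *Lipe*, differed by less than its error. The first probe gave -5.07, -4.88, -4.97, -5.03 and -5.25 on the OUM arrays and -4.96, -5.25, -5.07, -5.07 and -4.92 on the naive arrays. The second gave -3.51, -3.81, -3.59, -3.95 and -4.01 on the OUM arrays and -3.81, -3.88, -3.70, -4.01 and -3.51 on the naive arrays. The ranges nearly coincided for both probes, with log2 differences of 0.01 (SE 0.08) and 0.01 (SE 0.12). The difference of the inhibitor gene *G0s2* (0.47) was thus larger than that of *Pnpla2* (0.14) or *Lipe* (0.01). Whether these differences differ from each other was not tested.

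**Figure D2:**
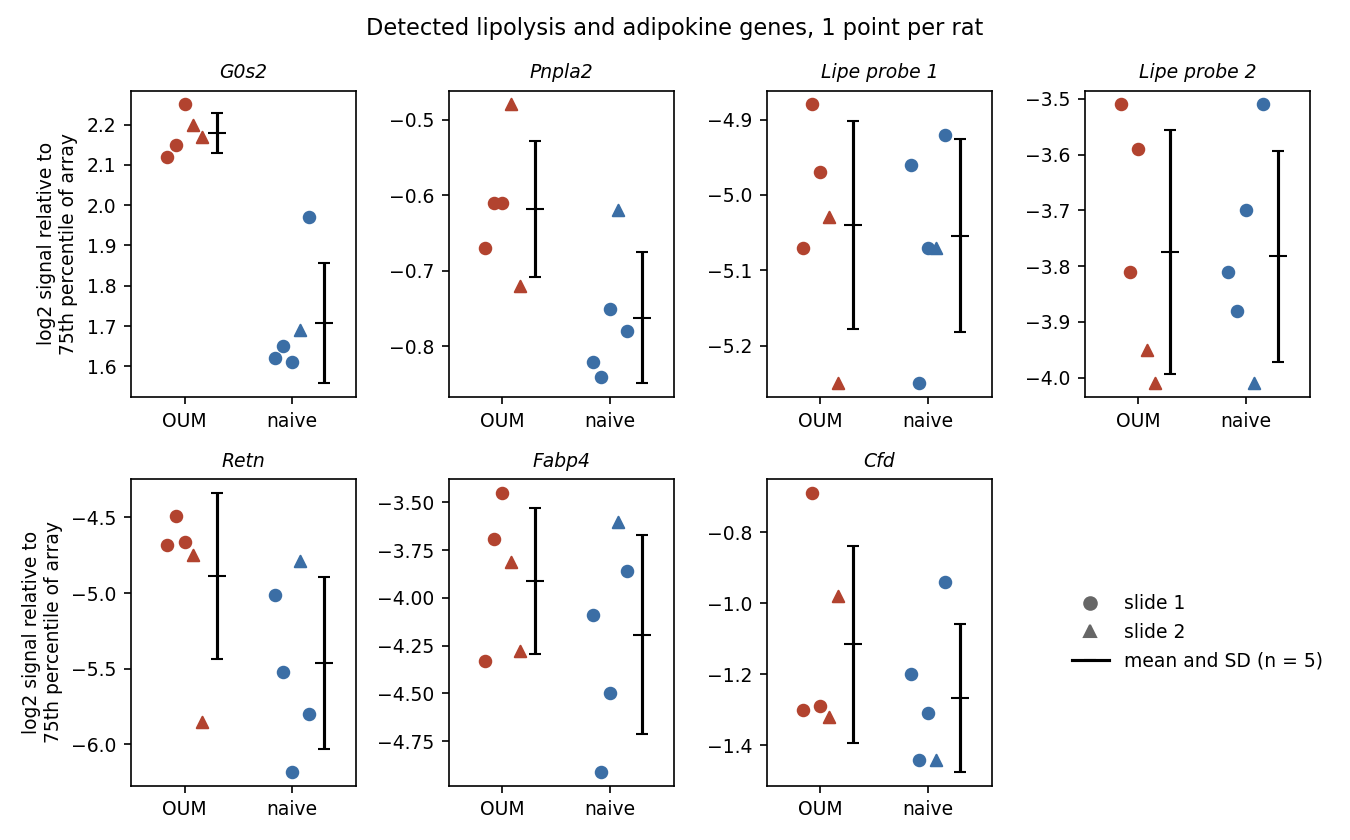
Log2 signal relative to the 75th percentile of the array for the 7 member probes measured above background on every array, in OUM (left of each panel) and naive rats (right), with 1 point per rat, slide by symbol, and the mean and SD (n = 5). The vertical scale differs between panels. The *G0s2* points do not overlap (2.12 to 2.25 in the OUM model, 1.61 to 1.97 in naive rats), and those of the other probes do.

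*Retn* had a larger mean difference than *G0s2* but a far wider spread. Its log2 signal was -4.68, -4.49, -4.66, -4.75 and -5.85 on OUM arrays 1 to 5, and -5.01, -5.52, -6.18, -4.79 and -5.80 on naive arrays 1 to 5. On 4 of 5 OUM arrays *Retn* was above all naive arrays, while OUM array 5 was below 4 of the 5 naive arrays. The means were -4.89 ± 0.55 in the OUM model and -5.46 ± 0.57 in naive rats (SD, n = 5 each), a log2 difference of 0.57 (SE 0.31), or 1.49-fold. The direction turned between slides: the difference was 1.02 within slide 1 and -0.51 within slide 2, where naive array 4 had the highest naive value and OUM array 5 the lowest OUM value. Without OUM array 5 it was 0.82, and with the normexp background correction 0.23. The SD of *Retn* within groups, 0.56, was above that of 94.4% of the 2036 tested probes whose mean signal lay within 0.5 of its own. For *G0s2* the SD was 0.11, above that of 64.5% of 1540 such probes.

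Relatives of resistin, named for that relation, gave few values. *Retnla* and *Retnlb*, which encode resistin-like proteins, were well above background on 0 arrays, and *Retnlg*, expressed in rodent bone marrow and neutrophils, was so on 5 OUM and 4 naive arrays, with a log2 difference of -0.13 (SE 0.59, limma adjusted p = 0.968). The summed signal of 8 neutrophil genes was 1.98, 4.91, 1.20, 2.44 and 0.617 times the 75th percentile on the OUM arrays, and 8.86, 3.61, 1.55, 0.669 and 1.39 on the naive arrays. OUM array 5 was thus lowest of its group for both *Retn* and neutrophil genes, and OUM array 2 was highest of its group for both. Naive array 1, highest for neutrophil genes, had a *Retn* value of -5.01, below only naive array 4 among the naive arrays. Naive array 4 was lowest of its group for neutrophil genes and highest of its group for *Retn*. Of these 8 genes, 4 were measured on all arrays and *Cxcr2* on none. Their part in the *Retn* values was not tested.

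*Fabp4*, the fatty acid carrier, varied almost as much as *Retn*. The log2 signal was -4.33, -3.69, -3.45, -3.81 and -4.28 on the OUM arrays and -4.09, -4.91, -4.50, -3.60 and -3.86 on the naive arrays, and the groups overlapped over most of their range. The log2 difference was 0.28 (SE 0.26), with 0.52 within slide 1 and -0.44 within slide 2. It was 0.10 without naive array 2, 0.17 without OUM array 3 and 0.43 without naive array 4. As with *Retn*, naive array 4 on slide 2 was the highest naive array. The summed signal of 7 endothelial genes, all measured on every array, was 5.02 to 6.05 in the OUM model and 5.03 to 5.62 in naive rats. That of 8 macrophage genes, all measured, had a median of 19.9 and a highest value of 24.2 in the OUM model, against 18.8 and 19.4 in naive rats. On the linear scale the macrophage sum rests mostly on *Lyz2*, with mean log2 signals of 4.06 in the OUM model and 3.85 in naive rats. The next brightest gene, *Aif1*, had 1.64 and 1.59. Both lists overlapped between the groups. Their part in the *Fabp4* values was not tested.

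*Cfd* encodes adipsin, the protease that cleaves factor B in the alternative complement pathway. Its log2 signal was -1.30, -0.69, -1.29, -1.32 and -0.98 on the OUM arrays and -1.20, -1.44, -1.31, -1.44 and -0.94 on the naive arrays. Most arrays of both groups lay close together near the lower values, with OUM array 2 highest. The log2 difference was 0.15 (SE 0.14), 0.13 within slide 1 and 0.29 within slide 2, and it was 0.04 without OUM array 2 and 0.23 without naive array 5.

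**Figure D3:**
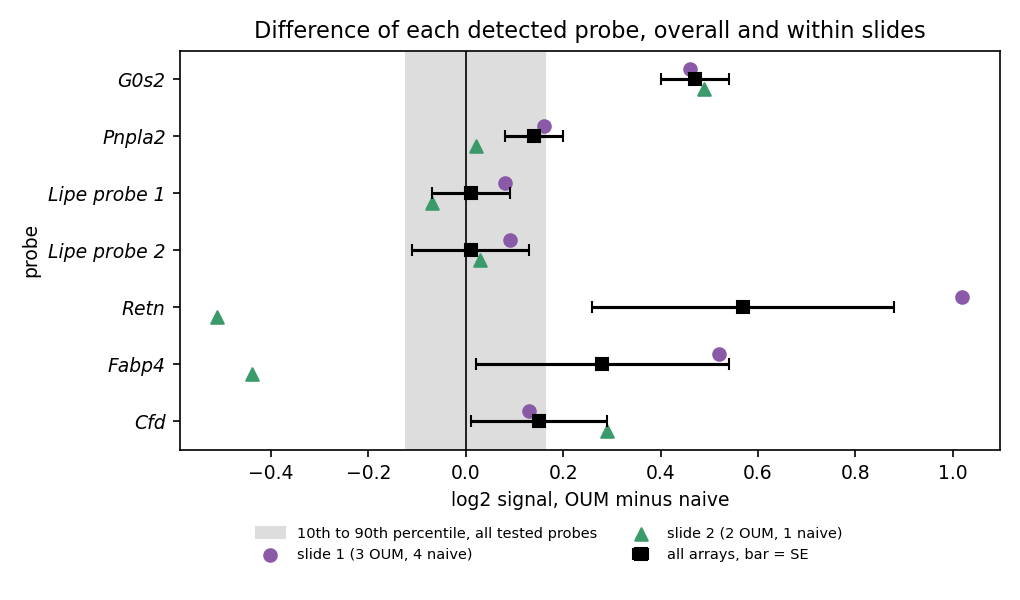
Log2 difference, OUM minus naive, of each detected member probe over all arrays (squares, bar = SE) and within slide 1 (circles, 3 OUM and 4 naive) and slide 2 (triangles, 2 OUM and 1 naive). The grey band is the 10th to 90th percentile of all tested probes. *G0s2* lies at 0.46 to 0.49 in all settings shown, whereas *Retn* (1.02 and -0.51) and *Fabp4* (0.52 and -0.44) change sign between slides.

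It was next asked, after the values were seen, whether the members moved together from rat to rat. Over the 10 arrays, Pearson's r was 0.60 for *Retn* and *Fabp4* (permutation p = 0.0703; Spearman's rho 0.62, permutation p = 0.0619), 0.62 for *Retn* and *Pnpla2* (p = 0.0562; rho 0.68, p = 0.0346) and 0.65 for *Fabp4* and *Pnpla2* (p = 0.0414; rho 0.70, p = 0.0305; permutation tests). With adjustment over the 15 pairs, the p of each r was 0.264 and none passed. The permutations did not keep the groups apart, so these p also carry the OUM minus naive differences known when the members were chosen. Nothing is read from them. Without the 2 arrays farthest from the median of the first gene, r was 0.48, 0.71 and 0.47, within the 7 arrays of slide 1 it was 0.53, 0.65 and 0.67, and with each group's mean subtracted 0.53, 0.45 and 0.61, in the same order of pairs. Slide 2, with 3 arrays, gives no value. *Cfd* and *Lipe* showed r between -0.18 and 0.28 with *Retn*, *Fabp4*, *Pnpla2* and each other over the 10 arrays. Within slide 1 these r ran from 0.01 to 0.61, with 0.61 for *Fabp4* and *Cfd*, 0.41 for *Pnpla2* and *Cfd* and 0.38 for *Fabp4* and *Lipe*. No pooled r is given for *G0s2*, whose groups are separate. After the same subtraction, r of *G0s2* was -0.12 with *Retn*, 0.48 with *Fabp4*, 0.12 with *Pnpla2*, 0.41 with *Lipe* and 0.36 with *Cfd*. The genes whose values followed *G0s2* most closely after it, among 11706 genes and over 10 arrays, were *Vps13a* (r = 0.97), *Zdhhc4* (0.93), *Apba1* (0.93), *Kcnj5* (0.93) and *Syn3* (0.92). Those nearest to *Retn* were *Bhlhe22* (0.92), *Gdf9* (0.90), *Tob2* (0.90), *Rnf10* (0.87) and *Dmrta2* (0.87). With so many genes and few arrays, these are the top of a ranking and not a test. For *G0s2*, the r after subtraction and the ranking rest largely on naive array 5, whose value of 1.97 lay far from the naive mean of 1.71.

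The rest of the lipid pathway was read from 6 lists without the members, with 66 genes and 74 probes tested. With limma, 0 probes passed an adjusted p of 0.05, where 0% of all probes passed. Without adjustment, 8 probes had a p under 0.05 with a higher and 2 with a lower signal in the OUM model, where 4.65% of all tested probes were higher and 3.72% lower. Among the lipid droplet and lipolysis genes, 1 of 15 tested genes was higher at an unadjusted p under 0.05 and 0 were lower, with a median log2 difference of 0.02 against 0.00 over all tested probes. That gene was *Adrb1*, a beta-adrenergic receptor that starts lipolysis in fat, at 0.19 (SE 0.08, limma adjusted p = 0.563). The next lowest p was that of *Bscl2*, the seipin gene of droplet formation, at -0.18 (SE 0.13, limma adjusted p = 0.759). *Abhd5*, which encodes the coactivator of ATGL and competes in function with the *G0s2* product, had a difference of 0.03 (SE 0.05, limma adjusted p = 0.908), and *Mgll*, for the last lipase of the chain, one of 0.04 (SE 0.09, limma adjusted p = 0.914). The droplet coat gene *Plin2* stood at -0.03 (SE 0.06, limma adjusted p = 0.925). These 3 genes were picked for their roles after their values were seen.

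Of 13 tested genes for fatty acid uptake and triglyceride synthesis, an unadjusted p under 0.05 was reached by 2 that were higher and 1 that was lower, with a median of 0.00. *Gpd1*, whose enzyme makes the glycerol backbone, had a log2 signal of 1.55 ± 0.13 in the OUM model and 1.29 ± 0.15 in naive rats (SD, n = 5 each), a difference of 0.27 (SE 0.08, limma adjusted p = 0.509). *Slc27a4*, a fatty acid transporter, had one of 0.13 (SE 0.06, limma adjusted p = 0.588). *Gpam*, which attaches the first acyl chain, went the other way at -0.19 (SE 0.07, limma adjusted p = 0.531), lower than all naive arrays on 4 of 5 OUM arrays. Thus the list held differences of both signs.

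In the list of adipocyte transcription factors, 5 of 13 tested probes, from 5 of 12 tested genes, were higher by this measure and 0 were lower. Of all tested probes, 4.65% were higher and 3.72% lower. The list median was 0.10, against 0.00 over all tested probes. Since the lists were chosen with earlier results of these data known, nothing is read from these counts. *Klf15*, a factor induced by glucocorticoids and fasting, gave 1.26 ± 0.07 in the OUM model and 0.84 ± 0.25 in naive rats (SD, n = 5 each), with a difference of 0.42 (SE 0.11, limma adjusted p = 0.383). On 4 of 5 OUM arrays it was above all naive arrays, and the difference was 0.52 within slide 1 and 0.03 within slide 2. *Srebf1*, the driver of lipid synthesis genes, had one of 0.24 (SE 0.08, limma adjusted p = 0.531; 0.21 within slide 1 and 0.19 within slide 2), and *Cebpb*, an early factor of fat cell formation that also acts in inflammation, one of 0.20 (SE 0.06, limma adjusted p = 0.515; 0.24 within slide 1 and 0.04 within slide 2). A probe of *Ppard* gave 0.20 (SE 0.08, limma adjusted p = 0.571; 0.28 within slide 1 and -0.01 within slide 2), and its other probe gave -0.05 (SE 0.09, limma adjusted p = 0.919). The fifth gene was *Rxra*, partner of the PPAR factors, at 0.22 (SE 0.10, limma adjusted p = 0.596; 0.15 within slide 1 and 0.44 within slide 2). *Pparg*, the master factor of adipocytes, had a difference of -0.05 (SE 0.07, limma adjusted p = 0.904). These last genes were named after their values were seen.

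The other lists held 1 gene at that level. Of 9 tested fasting and PPAR target genes, 0 were higher by this measure and 1 was lower, with a median of -0.08. *Acadm*, which encodes an enzyme of fatty acid oxidation, had a difference of -0.08 (SE 0.04, limma adjusted p = 0.667). Among 10 tested adipokine receptor and resistin family genes, none reached an unadjusted p under 0.05 (median 0.03). *Tlr4*, which has been proposed as a receptor for resistin, had a difference of -0.33 (SE 0.22, limma adjusted p = 0.737), with -0.09 within slide 1 and -1.29 within slide 2, which holds 1 naive array, and the adiponectin receptor gene *Adipor2* one of 0.07 (SE 0.05, limma adjusted p = 0.739). *Lepr*, the leptin receptor, was well above background on 0 arrays with both of its probes. Of 7 tested alternative complement genes, none reached it either (median 0.17). *Cfb*, which encodes the substrate of adipsin, had a difference of 0.55 (SE 0.34, limma adjusted p = 0.725).

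**Figure D4:**
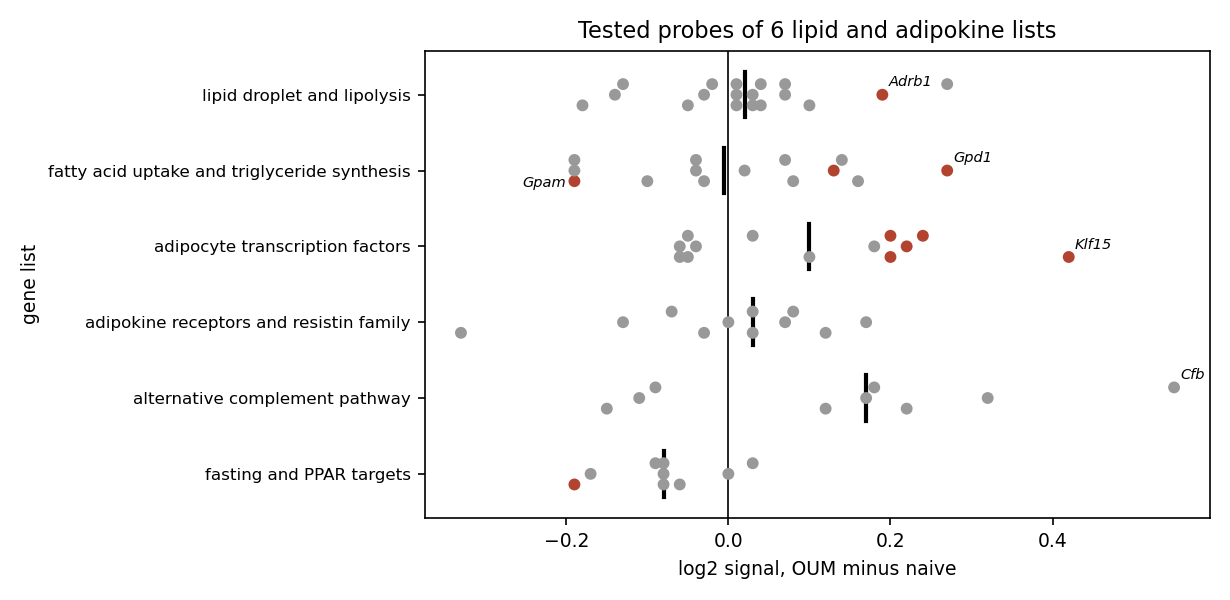
Log2 difference, OUM minus naive, of the tested probes of 6 lists of lipid, adipokine and complement genes without the members. Each point is 1 probe, red where the unadjusted limma p was under 0.05, and black bars mark the list medians, which run from -0.08 (fasting and PPAR targets) to 0.17 (alternative complement pathway). The 5 red points of the adipocyte transcription factors lie at 0.20 to 0.42.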

How the data were processed

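The 1-colour arrays (Agilent SurePrint G3 Rat GE) were scanned by the authors and quantified with Agilent Feature Extraction 10.7.1.1, per the labels. The deposited intensity is the processed signal of each spot, after background subtraction and spatial detrending. The authors also deposited a linear signal table made with GeneSpring GX, with medians of 0.114 to 0.120, which was checked to be the same intensity on another scale, with 1 factor per array close to its 75th percentile, and was used as an alternative.

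Control spots and spots marked as outliers (267 to 334 per array) were left out, spots of a probe were averaged, and log2 was taken relative to the 75th percentile over probes (1910.2 to 2174.2). Accessions were named through RefSeq (GRCr8), which gave 18438 of 30367 probes a symbol. A probe entered the test when at least 1 group had it well above background on each of its 5 arrays, and was fitted with limma 3.58.1 in R 4.3.3 (lmFit and eBayes, two-sided, Benjamini-Hochberg over 21521 probes, threshold 0.05). SEs are from that fit. Correlations used 100000 permutations. The fit was tested on simulated data.

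The members and lists were chosen with earlier results of these data known. Named list genes are up to 4 with the lowest p under 0.05, or otherwise the 2 lowest, and exceptions are stated. Some list genes are counted but not reported by name here. A planned correlation of the members with *Adipoq*, and its alternatives, were not run, since that probe was not above background. Marker lists not described with the results (brown adipocyte, muscle, fibroblast, blood, satellite glia, pituitary) all overlapped between groups. Alternatives were other normalizations, background correction, filters, probe choice, outlier spots, slide and replicate blocks, single slides, the methods' t-test, an intensity trend, the authors' table and each array left out.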

Additional observations from a re-analysis of the deposited data

Results flagged for a closer look

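The *G0s2* value of naive array 5, 1.97, stood far from the other naive arrays, with a gap to the nearest of them that made up 0.78 of the group's range. The *Retn* value of OUM array 5, -5.85, did so among the OUM arrays, with a share of 0.81. Chance gives such a mark to about 1 in 20 groups, and 14 groups of 5 arrays were examined.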

How the results depend on the processing

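The *G0s2* difference was 0.44 to 0.53 over 25 alternatives, and 0.44 to 0.53 with each array left out. Its sign never turned over these alternatives, nor did that of *Pnpla2* (0.02 to 0.18) or *Cfd* (0.04 to 0.29). *Retn* ran from -0.51 to 1.02 and *Fabp4* from -0.44 to 0.52, each turning sign in slide 2 alone, which holds 1 naive array, and the cause was not tested. Each *Lipe* probe turned sign in 6 of 25 alternatives.

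The count of all probes past an adjusted p of 0.05 was 0, with 1801 at an unadjusted p under 0.05. It was 4 with median scaling, 4 with the normexp correction, 2 for probes above background on all arrays, 4 with the slide as a block, 1 by the methods' t-test (1567 unadjusted), 5 on slide 1 alone, 351 on slide 2 alone, whose spread rests on 2 OUM arrays, and 0 to 1 with each array left out. Of the list probes, 1 (*Tlr4*) passed on slide 2 alone. Of the member probes, 0 to 1 passed with each array left out, namely *G0s2* without naive array 5. Nothing is read from that count, since the members were chosen with this comparison known.

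The deviations of same-numbered OUM and naive arrays from their group means had correlations of -0.09 to 0.32. The highest was that of number 4, whose arrays both lay on slide 2. Differently numbered arrays were not compared, and the main fit did not treat the numbers as pairs. With the replicate block 0 probes passed, and the *G0s2* difference was 0.47. Without the 3 arrays richest in pituitary hormone RNA (naive 1, OUM 1 and OUM 2), left out after seeing the data (summed hormone signal 1.51 to 36.6 in the OUM model and 0.481 to 29.5 in naive rats), *G0s2* stood at 0.47, *Retn* at 0.49 and *Lipe* probe 2 at -0.08. The median difference of the transcription factor list ran from 0.05 (slide 1 alone) to 0.15 (without OUM array 1), that of the complement list was 0.02 on slide 1 alone and 0.37 on slide 2 alone, and that of the droplet and lipolysis list -0.04 there and -0.02 without OUM array 1. Signals near background limit *Retn*, *Adipoq*, *Lep* and *Cidec*. The first *Lipe* probe was about as dim as *Retn*, with means of -5.04 in the OUM model and -5.05 in naive rats.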
